A study of Mus musculus with 20 samples.

Results

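A group of 23 probes on a mouse array for single sites of N6-methyladenosine (m6A), the methyl mark most often found inside messenger RNA, was described in heart muscle. The group was taken by name: every probe that is not a control spot and whose name starts with ASMM10m6ADRACA_A_51_P, which gave 23 of the 14408 site probes. Below, each is called by the last part of its name, so that P4276744 stands for ASMM10m6ADRACA_A_51_P4276744. The name rule itself used no measured value, although earlier results of these data were known when the group was chosen. The study set 5 male mice with a cardiac-specific deficiency of NPRA (NPRA-/-, called KO) against 5 male wild type mice (NPRA+/+, called WT), with 1 two-colour array per mouse and no treatment. NPRA sits in the cell membrane, binds the natriuretic peptides that the heart secretes and then makes cyclic GMP. The knockout came from a conditional line with a floxed NprA allele (NprAflox/flox), per the labels. The labels used here name neither the Cre driver nor the age of the mice, nor whether the wild type mice carry a floxed allele or Cre. Total RNA of whole myocardium was used, so that fewer cells of a type and less RNA per cell cannot be told apart.

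The name DRACA is a sequence motif, in which D is A, G or U and R is A or G, and in which the A before C can carry the methyl group. The bacterial RNase MazF cuts RNA at ACA when that A is bare and leaves it whole when it is methylated. In this assay, RNA of each mouse was cut with MazF, pulled down with an antibody against m6A and labelled with Cy5 (the modified RNA), while uncut input RNA of the same mouse was labelled with Cy3. A high Cy5/Cy3 ratio at a probe therefore stands for much modified RNA per unit of input, but it also holds the dye effect of that probe, since no dyes were swapped. The A_51_P form of the names is one that Agilent uses for probes of its mouse expression arrays. The files pair none of these names with a gene, site or oligonucleotide sequence, and 0 of the 23 occur in the gene table used here, nor does any other site probe of the array. The level of the knocked-out gene, marker genes of heart cells and the probe sequences were therefore not analysed here.

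Each of the 23 probes was printed 10 times on every array, at places spread over the array, whereas 14319 of the 14408 site probes had 1 spot. No spot of the group was saturated. Of its 230 spots per array, between 8 and 23 in Cy3 and between 3 and 13 in Cy5 were marked as outliers by the scanner software, and these were left out. In the input, 93.04% to 100% of the spots were well above background on an array, and in the modified RNA 63.04% to 86.09%. The 2 lowest Cy5 shares, 64.78% and 63.04%, were those of WT replicates 4 and 5, the mice on the second of 2 slides. The same 2 arrays were lowest over all probes of the array, with 47.93% and 45.13% well above background in Cy5, against 58.48% to 78.16% on the other 8. All 5 KO mice and WT replicates 1 to 3 were on the first slide. Slides were inferred from the file headers: arrays with the same scan date were taken as 1 slide. A slide and a scan therefore cannot be told apart here. The mean Cy5 share of the KO mice was 82.2% ± 2.06 (SD, n = 5), and that of the WT mice 74.0% ± 11.03 (SD, n = 5). By an exact permutation test, two-sided, these did not differ past the threshold (p = 0.167). Within slide 1 the KO mean was 1.45 percentage points higher (exact permutation test, two-sided, p = 0.804, where 5 against 3 mice allow no p below 0.0357).

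Single-channel values below are log2 signals relative to the 75th percentile of each array, so that 0 is the signal of a fairly bright probe and each unit is a doubling. Ratios are log2 Cy5/Cy3 relative to the median probe of the array. Signals of different probes also depend on how well each binds its RNA, so an order of probes by signal is not an order of RNA amounts. KO replicates 1 and 2 resembled each other over the whole array. Their input deviations from the mean of all mice correlated at 0.708 across 13880 probes (a description across probes, which are not replicates), against 0.372 for the next closest pair of KO mice and 0.568 for the closest pair of WT mice. These 2 arrays lay side by side in row 1 of slide 1, with KO replicates 4 and 5 in the same row, and KO replicate 3 and the WT mice of that slide in row 2. The main results that rest on KO replicates 1 and 2 are given with and without both, but not every value is. Counts of signs are given with all mice only.

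Input RNA was detected at all 23 probes. Of these, 21 were well above background on all 10 arrays, P3968834 on 9 and P1206364 on 8. The brightest was P1252604. Its input was 8.28, 8.33, 7.98, 8.21 and 7.92 in KO replicates 1 to 5, and 8.82, 8.34, 8.36, 8.20 and 8.11 in WT replicates 1 to 5. Only 20 of the 13940 probes tested had a higher mean, and the 2 genotypes overlapped. P1472074 came next among the 23, with 6.34, 6.49, 6.32, 6.25 and 6.43 in KO and 6.90, 6.63, 6.56, 6.56 and 6.06 in WT, also overlapping. At the other end, P1206364 had -4.65, -4.24, -4.47, -4.47 and -4.30 in KO and -4.48, -4.32, -4.78, -4.17 and -4.17 in WT. P3968834 had -4.36, -4.73, -3.99, -4.33 and -4.55 in KO and -4.30, -4.03, -4.37, -4.06 and -4.02 in WT. The genotypes overlapped at both dim probes.

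The other 19 probes filled the range between. Mean inputs over the 10 mice (± SD) were 4.22 ± 0.38 for P3464454, 2.91 ± 1.07 for P4569574, 2.84 ± 0.44 for P1914634, 2.76 ± 0.50 for P2795524, 2.24 ± 1.02 for P2711604 and 2.15 ± 0.11 for P4554104. All 6 lay well above the 75th percentile of the array. Around that percentile lay P4276744 at 0.70 ± 0.48, P3982354 at 0.47 ± 0.27, P5160574 at 0.04 ± 0.24, P1722314 at -0.31 ± 0.26, P4521194 at -0.34 ± 0.29 and P4751384 at -0.41 ± 0.47. The dimmer ones were P2099654 at -1.57 ± 0.10, P4373274 at -1.89 ± 0.27, P4521534 at -2.01 ± 0.30, P2415774 at -2.70 ± 0.14, P2122714 at -2.95 ± 0.08, P1438554 at -3.03 ± 0.20 and P4685054 at -3.07 ± 0.08. Spreads of about 1 unit at P4569574 and P2711604 stand against 0.08 at P2122714 and P4685054.

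P4569574 and P2711604 were among the most variable probes of the whole array in the input. By their SD over 10 mice they ranked 70 and 98 from the top of 13940 probes, although each value averages up to 10 spots. At P4569574 KO replicates 1 to 5 had 4.93, 4.71, 2.42, 2.27 and 2.31, and WT replicates 1 to 5 had 3.24, 2.31, 1.88, 2.73 and 2.26. KO replicates 1 and 2 stood far above the other 8 mice, and the span from lowest to highest mouse was 8.31-fold. At P2711604 KO replicates 1 to 5 had 4.09, 3.76, 1.75, 1.74 and 1.17, and WT had 1.93, 2.51, 0.90, 2.22 and 2.28. The same mice were highest there, and the span was 9.11-fold. P4751384 had its highest inputs in these mice as well, at 0.49 and 0.00, against -0.52, -0.57 and -0.88 in the other KO mice and -0.23, -0.47, -1.22, -0.26 and -0.49 in WT. As a description over 10 mice, the inputs of P2711604 and P4569574 correlated at r = 0.89, and at 0.42 over the 8 mice left without KO replicates 1 and 2. For P2711604 and P4751384 these were 0.92 and 0.84. The closest pair of the group was P2415774 and P4521194, at 0.94 over 10 mice and 0.96 over those 8. All such values share the arrays and their scaling.

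The repeat spots show the measuring error within an array. The spread between mice holds, besides the mice, the labelling and array of each and, in Cy5, its pull-down, which 1 array per mouse cannot tell apart. In the input the SD between spots of 1 probe on 1 array, as the median over arrays, ran from 0.0245 to 0.144 log2 units over the 23 probes, with a median of 0.0398. The SD between mice of the same genotype had a median of 0.228 and exceeded the spot SD at 22 of 23 probes. At P4569574 it was 1.03 between mice against 0.05 between spots. The exception was P2122714, with 0.0661 between mice and 0.0761 between spots. Modified RNA was measured less sharply: over the 20 probes detected there, the median spot SD was 0.126 and the median SD between mice 0.376. For the ratio, over 19 probes, these were 0.11 and 0.285. Spots of a probe share the RNA of 1 mouse, so the tests below count mice and not spots.

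Modified RNA was well above background on all 10 arrays at 14 of the 23 probes. Another 6 passed on 5 to 9 arrays and were kept, since a probe needed 5 arrays. P2122714 and P4685054 were not well above background on any array and P3968834 only on 1, WT replicate 1, so their Cy5 values are bounds and were not tested. Both P2122714 and P4685054 had input well above background on all 10 arrays. The brightest modified signal was that of P4569574. It was 4.62, 4.47, 2.99, 2.96 and 3.36 in KO replicates 1 to 5 and 3.14, 3.33, 2.82, 3.38 and 3.01 in WT replicates 1 to 5, again highest in KO replicates 1 and 2. P1472074 had 3.97, 4.07, 2.96, 3.01 and 3.30 in KO and 3.02, 2.74, 2.83, 2.94 and 3.10 in WT. P1252604 had 4.12, 4.16, 2.03, 2.60 and 2.18 in KO and 2.92, 2.33, 1.63, 2.25 and 3.14 in WT. In both, KO replicates 1 and 2 had the highest values of all mice. In P1252604 they lay well above the other KO mice, although their input there, 8.28 and 8.33, was within the range of the rest.

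The other modified signals spread widely. Means over the 10 mice (± SD) were 1.97 ± 0.42 for P1914634, 1.60 ± 0.77 for P2711604, 1.38 ± 0.53 for P3464454, 0.44 ± 0.36 for P4554104 and -0.01 ± 0.31 for P4751384. They were -0.83 ± 0.67 for P4276744, -0.93 ± 0.53 for P4521534, -0.97 ± 0.18 for P4521194, -1.03 ± 0.18 for P1722314, -1.31 ± 0.24 for P5160574 and -1.39 ± 0.33 for P4373274. All of these were measured on all 10 arrays. The 6 probes detected on fewer arrays were P3982354 (-2.02 ± 0.52, 9 arrays), P2415774 (-2.80 ± 0.29, 8), P2795524 (-2.74 ± 1.04, 7), P2099654 (-2.94 ± 0.25, 7), P1206364 (-3.39 ± 0.37, 5) and P1438554 (-3.45 ± 0.64, 5). P1206364 had -3.54, -3.83, -3.21, -3.50 and -3.21 in KO and -3.55, -3.81, -3.48, -3.22 and -2.56 in WT, with overlap. Values on arrays without a signal above background are bounds, and for P2795524 and P2099654 the 7 arrays were 5 of KO and 2 of WT.

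The Cy5/Cy3 ratio could be taken at 19 probes, since P1206364 was above background in both channels on 4 arrays only. At 2 of them the Cy5 signal was very low relative to Cy3. P1252604 and P2795524 ranked 3 and 4 from the lowest mean ratio of the 10053 probes tested. At P1252604 the log2 ratio to the median probe was -3.71, -3.66, -5.69, -5.24 and -5.41 in KO replicates 1 to 5 and -5.51, -5.52, -6.49, -5.35 and -4.39 in WT replicates 1 to 5. The ratio was less low in KO replicates 1 and 2 than in the other 8 mice. At P2795524 it was -4.23, -4.02, -5.58, -5.43 and -4.83 in KO and -5.997, -5.429, -6.001, -4.610 and -4.715 in WT, where KO replicates 1 and 2 were again the least low. Cy5 of P2795524 was well above background on 7 arrays, so its ratio is partly a bound. The highest ratio was that of P4521534, with 1.29, 1.49, 0.80, 1.43 and 1.78 in KO and 1.35, 1.39, 2.25, 2.00 and 1.33 in WT, all above the median probe in every mouse. P4373274 followed with 1.01, 1.02, 1.19, 0.92 and 1.27 in KO and 0.87, 0.98, 0.99, 0.41 and 0.65 in WT, also above it in every mouse.

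Of the 19 probes, 17 lay away from the median probe of the array (limma adjusted p under 0.05 on the mean of both genotypes, 5 mice each), 5 above and 12 below. Over all 10053 probes 87.3% did so, 43.7% above and 43.6% below, so the share called is near that of the array. The 5 above were P4521534 at 1.51 (SE 0.12, limma adjusted p = 9.19e-09), P4373274 at 0.93 (SE 0.09), P4569574 at 0.92 (SE 0.14), P4751384 at 0.83 (SE 0.09) and P2415774 at 0.33 (SE 0.09). Limma adjusted p for the last of these was 0.00438. The 12 below ran from P1252604 at -5.10 (SE 0.22, limma adjusted p = 1.58e-11) and P2795524 at -5.08 (SE 0.18) to P4521194 at -0.19 (SE 0.08, limma adjusted p = 0.0427). Between them lay P1472074 at -2.84 (SE 0.14), P3464454 at -2.42 (SE 0.15), P3982354 at -2.07 (SE 0.10), P4554104 at -1.29 (SE 0.12) and P4276744 at -1.11 (SE 0.10), followed by P2099654 at -0.94 (SE 0.08), P5160574 at -0.91 (SE 0.10), P1914634 at -0.45 (SE 0.09) and P1722314 at -0.29 (SE 0.09). P2711604 at -0.20 (SE 0.10, limma adjusted p = 0.081) and P1438554 at 0.04 (SE 0.17, limma adjusted p = 0.835) did not pass. In single mice, 10 of the 19 were below the median probe in all 10, 4 were above in all 10 and 5 had both signs. These signs are relative. Measured against 65 probes for spike-in RNA added in equal amount to both fractions, the median probe of the array itself lay at -0.92. On that scale 1 probe of the group was above and 15 below, against 2182 above and 6658 below of all 10053 probes. The 1 above was P4521534 at 0.59 (limma adjusted p = 0.000434), P2415774 turned to -0.60 (limma adjusted p = 7.39e-05), and P4373274, P4569574 and P4751384 were at 0.01, 0.00 and -0.10, none past the threshold.

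Across the 19 probes the mean input and the mean modified signal went together (Pearson r = 0.80, Spearman rho = 0.77). Over all 10053 probes these were 0.75 and 0.65. The ratio was lower where the input was brighter, with r = -0.72 and rho = -0.68 across the 19 against -0.40 and -0.43 over all probes. These are descriptions across probes that share arrays, scaling and the dye normalization, and the ratio contains the input.

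The comparison of genotypes asked whether cardiac loss of NPRA changed RNA abundance, modified RNA or their ratio at these probes. In the input 1 of 23 probes differed, P4276744, which was higher in KO. Over all 13940 probes 1.66% differed and 0.617% were higher in KO. Its input was 0.90, 1.22, 1.08, 0.78 and 1.45 in KO replicates 1 to 5 and 0.01, 0.37, 0.67, 0.03 and 0.50 in WT replicates 1 to 5, so every KO mouse lay above every WT mouse. The means were 1.09 ± 0.26 (SD, n = 5) and 0.32 ± 0.29 (SD, n = 5), a rise of 1.71-fold (95% interval 1.34 to 2.18). The fitted log2 difference was 0.77 (SE 0.16, limma adjusted p = 0.0388). The difference was 0.74 with the slide as a block (limma adjusted p = 0.115), 0.74 among mice of slide 1 (limma adjusted p = 0.153) and 0.79 with KO replicates 1 and 2 left out (limma adjusted p = 0.21), so its size was close and the call was lost in each. Over all 13940 probes the calls fell from 232 to 27, 26 and 9 in these fits. The P4276744 call was also lost without any 1 of KO replicates 1, 2 and 5 and WT replicates 1, 2, 4 and 5 (limma adjusted p 0.0657 to 0.108). In those fits 43 to 116 probes of the array were called.

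The input of P1722314 came closest after P4276744. Over the 10 mice the inputs of these 2 probes correlated at 0.92, a description that includes the genotype difference of both. At P1722314 KO replicates 1 to 5 had -0.24, 0.06, -0.17, -0.14 and -0.09 and WT -0.77, -0.35, -0.30, -0.63 and -0.48, with no overlap. The difference of 0.39 (SE 0.11, limma adjusted p = 0.098) did not pass, but it did without WT replicate 3 (0.44, limma adjusted p = 0.0419). Without that mouse 1030 of all 13940 probes passed, against 232 with all mice. The 2 probes without overlap, P4276744 and P1722314, were both higher in KO. Of all 13880 probes with a value in every mouse, the groups did not overlap at 4.63%, with KO wholly above WT at 2.52% and wholly below at 2.1%. P4521534 had the lowest fitted difference, -0.41 (SE 0.13, limma adjusted p = 0.127), which did not pass. Its input was -2.34, -2.49, -2.01, -1.97 and -2.30 in KO and -1.90, -2.02, -1.91, -1.64 and -1.57 in WT, with KO replicates 3 and 4 overlapping the WT range. P1438554 had -3.13, -3.22, -2.88, -3.10 and -3.36 in KO and -2.98, -3.01, -3.12, -2.80 and -2.72 in WT, a difference of -0.21 (SE 0.12, limma adjusted p = 0.319) that did not pass.

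The largest fitted input differences of the group, 0.84 at P4569574 (95% interval -0.33 to 2.01) and, after P4276744, 0.53 at P2711604 (-0.64 to 1.71), rested on KO replicates 1 and 2. Neither passed (limma adjusted p = 0.378 and 0.58). Without both mice these were -0.15 and -0.41, the opposite sign. Smaller input differences at P4751384 and P3982354 also turned, from 0.24 and 0.13 to -0.12 and -0.08. Of the 23 fitted differences 11 were higher and 12 lower in KO, with a median of -0.04, against 39.5% higher and a median of -0.06 over all probes. With the spike-in scale in place of the 75th percentile, 19 of the 23 were higher, against 68.3% of all probes, whose median moved to 0.11. At 20 of the 23 the 95% interval stayed within 1 log2 unit of 0 on both sides, and this did not hold at P4276744, P4569574 and P2711604. At an unadjusted p under 0.05 there were 5 of 23, against 19.9% of all probes.

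In the modified RNA 0 of 20 probes differed (limma), against 1.14% of 10076 probes, and 4 had an unadjusted p under 0.05, against 16.2%. P3464454 had the smallest p. Its Cy5 signal was 1.97, 2.20, 1.35, 1.34 and 2.03 in KO replicates 1 to 5 and 0.58, 0.94, 1.14, 1.24 and 1.01 in WT replicates 1 to 5, so that every KO mouse lay above every WT mouse. It was the 1 probe of the 20 without overlap. Over all 10028 probes with a value in every mouse 3.83% had none, 1.95% with KO above and 1.87% with KO below. The difference was 0.80 (SE 0.22, limma adjusted p = 0.104) with a 95% interval of 0.31 to 1.28. It passed when the probes tested were those well above background on all 10 arrays (0.81, limma adjusted p = 0.0447), where 14 probes of the group remained. In that fit 198 of all 5955 probes were called. Within slide 1 it was 0.89 (limma adjusted p = 0.0928), and without KO replicates 1 and 2 0.59 (limma adjusted p = 0.538). Input of the same probe was 4.14, 4.15, 4.81, 4.27 and 4.81 in KO and 3.68, 3.95, 4.34, 4.36 and 3.75 in WT, a difference of 0.42 (SE 0.19, limma adjusted p = 0.239). P4276744, the probe called in the input, had a Cy5 signal of -0.56, -0.25, -0.52, -0.92 and 0.47 in KO and -1.59, -1.19, -0.92, -1.89 and -0.91 in WT. The genotypes overlapped only through KO replicate 4. Its difference of 0.94 (SE 0.28, limma adjusted p = 0.122) did not pass.

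On the lower side, P4521534 had a Cy5 signal of -1.50, -1.52, -1.47, -0.88 and -0.85 in KO and -0.94, -1.15, 0.10, -0.25 and -0.82 in WT. The groups overlapped and the difference of -0.63 (SE 0.26, limma adjusted p = 0.263) did not pass. P1438554, above background on 3 KO and 2 WT arrays, had -4.66, -3.52, -3.89, -2.65 and -3.65 in KO and -2.70, -3.74, -3.01, -2.82 and -3.81 in WT. These are partly bounds, and the fitted -0.46 (SE 0.34, limma adjusted p = 0.51) is no measured fold. Of the 20 fitted differences 16 were higher in KO, with a median of 0.31. Over all probes 58.1% were higher, with a median of 0.08. The 16 include P2795524 and P2099654, which were kept on 5 KO and 2 WT arrays. The probes left out as too dim, P2122714, P3968834 and P4685054, had lower Cy5 means in KO, by -0.47, -0.61 and -0.65. Those values are bounds, so the count depends on the filter and is no result about the group. The highest fitted value, 0.99 at P2795524 (95% interval -0.05 to 2.03), rests in part on bounds in 3 WT mice and was 0.45 without KO replicates 1 and 2. Others rested on the same mice: without both, the differences at P1252604, P2711604 and P4569574 went from 0.56, 0.65 and 0.54 to -0.18, -0.06 and -0.03. At P1472074 the difference went from 0.54 to 0.16 and at P3982354 from 0.48 to 0.08, while at P4276744 it was 0.98. At 10 of the 20 probes the 95% interval stayed within 1 log2 unit of 0.

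In the ratio 0 of 19 probes differed between genotypes (limma), as did 0% of all 10053. An unadjusted p under 0.05 was reached by 1 of 19, against 8.92% of all probes. The genotypes overlapped at all 19 probes kept for the ratio, and had no overlap at 1.61% of all probes. The probe with the smallest p was P1472074, whose ratio was -1.92, -1.91, -3.10, -2.86 and -2.79 in KO replicates 1 to 5 and -3.51, -3.37, -3.49, -3.02 and -2.39 in WT replicates 1 to 5. KO replicates 1 and 2 had the highest ratios, and the difference was 0.64 (SE 0.29, limma adjusted p = 0.542). Without both mice it was 0.24, and within slide 1 0.94 (limma adjusted p = 0.284). P4373274, the next with a higher value, differed by 0.30 (SE 0.18, limma adjusted p = 0.637), and its values are given above. The lower values with the smallest p were at P1722314, with -0.32, -0.51, -0.46, -0.54 and -0.51 in KO and 0.21, -0.04, -0.48, -0.27 and 0.03 in WT. WT replicate 3 lay inside the KO range, and the difference was -0.36 (SE 0.18, limma adjusted p = 0.596). P4569574 had 0.12, 0.28, 0.82, 1.06 and 1.38 in KO and 0.29, 1.52, 1.18, 1.26 and 1.32 in WT, a difference of -0.38 (SE 0.28, limma adjusted p = 0.699) that was -0.03 without KO replicates 1 and 2. At P3464454 the ratio difference went from 0.29 to -0.17 without both mice.

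Of the 19 fitted ratio differences 12 were higher in KO, against 58.5% of all 10053 probes. On the spike-in scale 8 of the 19 were higher, against 40% of all probes, so signs over the whole array depend on the scale. At P1252604 the ratio differed by 0.71 (95% interval -0.22 to 1.64), by 0.00 without KO replicates 1 and 2, and by 1.096 within slide 1. At P2795524 these were 0.53 (-0.22 to 1.29), 0.07 and 0.99, and neither probe passed in any of these fits. At 16 of 19 probes the interval stayed within 1 log2 unit of 0, and those outside were P1252604, P2795524 and P1472074. P4276744, whose input rose, had a ratio of -1.026, -0.998, -1.345, -1.334 and -0.649 in KO and -1.21, -1.02, -1.35, -1.32 and -0.84 in WT. The ratio difference was 0.08 with an interval of -0.33 to 0.49 (limma adjusted p = 0.918). The ratio of P2099654 varied little between mice. It was -0.87 ± 0.03 in the KO mice and -1.01 ± 0.15 in the WT mice (mean ± SD, n = 5 each), where Cy5 was well above background on 5 KO and 2 WT arrays.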

How the data were processed

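Myocardial RNA of 10 male mice was hybridised to 10 Arraystar arrays of 2 colours, per the labels. The deposited scans of a mouse's Cy5 and Cy3 samples were identical, so each mouse counted once. The deposited files give the intensity of each spot as read by the scanner software, per the file headers; Agilent Feature Extraction 11.0.1.1 is named in the submitters' processing notes. The processed signals had background subtracted and dyes normalized on each array, per the file headers, which can remove shifts that most probes share. A deposited table of log2 values covers 10004 probes but 0 of these 23 and was not used.

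The members and comparisons were chosen with earlier results of these data known. Log2 processed signals were averaged over unmarked spots of a probe. A probe was kept if most of its spots exceeded background clearly, by the scanner's flag, on 5 or more arrays (for the ratio, in both channels). Single channels were scaled to the 75th percentile over kept probes, and ratios to their median. Genotypes were compared (KO minus WT) by limma 3.58.1 in R 4.3.3 over all kept probes, with Benjamini-Hochberg adjustment over all of them and a threshold of 0.05. Precision is limited by having 5 arrays per genotype. The fits were tested on simulated data. Probes given mouse by mouse are those past the threshold, the 2 with the smallest p in each direction of each comparison, and the 2 highest and 2 lowest by input, modified signal and ratio. Mouse-by-mouse values of P2711604 and P4751384, and further channels of the probes named, were added after their values were seen. Alternatives were other filters, spot averages, background corrections, scalings and blocks, and leaving out mice.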

Additional observations from a re-analysis of the deposited data

Results flagged for a closer look

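Values that stood far from the other 4 mice of their genotype were sought in 124 sets of 5 mice, and 6 were found (4.84%). Chance gives about 5% for independent sets, but these share mice and arrays. All 6 were in WT mice. The rule looks for 1 mouse apart from the other 4. Mice that deviate together, such as KO replicates 1 and 2 in the input of P4569574, are missed by it, so the 6 do not show which genotype holds more odd values. In 3 of them WT replicate 3 had an input far below the other WT mice, -2.96 at P2415774 (nearest WT mouse -2.62), -0.77 at P4521194 (nearest -0.25) and -1.22 at P4751384 (nearest -0.49). WT replicate 1 had an input of 1.45 at P2795524 (nearest 2.74) and a Cy5/Cy3 ratio of 0.29 at P4569574 (nearest 1.18). WT replicate 4, on slide 2, had a modified signal of -1.52 at P1722314 (nearest -1.02).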

How the results depend on the processing

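No probe of the group was called in the ratio between genotypes under any of 26 alternatives. Almost no probe of the array was called there either: the highest count was 17 of 10053, with normexp (offset 1). For distance from the median probe, 22 alternatives were run, none with a slide, row or replicate block, and the count ran from 14 of 14 probes tested (above background on all 10 arrays) to 19 of 19 (normexp, offset 1). Over all probes these 2 fits called 5332 of 5927 and 8892 of 10053, so the group was near the array. In the modified RNA the count was 0 except for 1 (P3464454) over probes well above background on all 10 arrays, where 198 of all 5955 were called. In the input it was 1 as reported above. It was 0 with normexp (offset 50), spike-in scaling, the slide block, slide 1 alone, slide and row, the replicate block, and without both KO replicates 1 and 2. Those fits called only 2 to 27 of all 13940 probes. Without both mice numbered 3 the count of the group was 3 (P4276744, P1722314 and P4521534), where 2334 of all 13940 probes were called. Leaving out each mouse gave 0 to 2. The 2 came without WT replicate 3, where 1030 of all 13940 probes were called. The P4276744 input difference ran from 0.64 to 0.95 and stayed past the threshold in 12 of 26 alternatives; with the replicate block it was 0.77 (limma adjusted p = 0.0714). Same-numbered KO and WT mice did not deviate together in the input (r from -0.247 to 0.18, and 0 of 10 mice closest to its own number). For the modified RNA r ran from -0.186 to 0.095 (0 of 10 mice), and for the ratio from -0.154 to 0.207 (1 of 10). The numbers were not taken as pairs. Some signs turned without KO replicates 1 and 2 or on the spike-in scale, as given above. Of the differences with the 2 smallest p in each direction, that of the P1438554 input turned, to 0.16 with slide and row. The cause was not tested. With 1 spot per probe in place of up to 10, P4276744 changed by 0.79 (limma adjusted p = 0.0364). Slide and row together leave 1 KO mouse beside 3 WT mice in row 2. Over all probes the input count ran from 2 to 2334 and the modified count from 0 to 377. Fits with 1 spot per probe, normexp with an offset of 1, marked spots kept, and 2 mice left out were chosen after seeing the data. The deposited value table could not be used for these probes. Dim Cy5 signals limit the ratio at 9 of the 23.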
